A study of Neurospora crassa with 12 samples.

Results

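The quinic acid (*qa*) gene cluster of *Neurospora crassa* was followed through all 8 mRNA libraries of the series. From 9730 genes in all, 6 of its genes were taken by identifier: *qa-2* (NCU06023), *qa-4* (NCU06024), *qa-3* (NCU06025), *qa-Y* (NCU06026), *qa-1S* (NCU06027) and *qa-1F* (NCU06028). No threshold on their values was used, but the choice was made with earlier results of these data known. All 6 were measured in every library and passed the filters on low values in both kinds of mRNA-seq.

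The cluster lets the mold live on quinic acid (QA). Quinate enters through the permease QA-Y, and the enzymes QA-3, QA-2 and QA-4 turn it step by step into protocatechuate, which is broken down further. QA-1F is the activator of the cluster and also acts on its own gene, and QA-1S is the repressor that holds QA-1F inactive when no QA is present. *N. crassa* geneticists use the *qa-2* promoter as a switch, since QA in a poor carbon source turns it on.

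That switch drives the silencing studied here. The WT strain was 87-3 (*bd*, *a*). Si*adat2* was made from a host of the genotype *bd*, *A*, *his-3* by placing an inverted repeat of *adat2* under the *qa-2* promoter at the *his-3* locus, and a homokaryon was then isolated. The dsRNA is directed against ADAT2, a subunit of the deaminase that makes inosine in tRNA anticodons. The strains thus differ in mating type and at *his-3* as well as in the hairpin. Both strains grew in 0.1% glucose and 0.01 M QA for 3 days on plates and 1 day with shaking in constant light, so that every library came from induced cultures and none from cultures without QA. The paper adds arginine to this medium, and the labels list none. Each of the 2 kinds of mRNA-seq held 2 WT and 2 Si*adat2* libraries. The accompanying mRNA-seq was made beside ribosome profiling, with cycloheximide (CHX) added 10 min before harvest and the kit used for the footprints. The independent mRNA-seq was made without CHX, by Trizol extraction and TruSeq libraries. The paper states that the Joint Genome Institute performed it, whereas the accompanying mRNA-seq used a part of each ribosome profiling sample. The kinds also differ in how reads were assigned to genes, so no level is compared across them, and the effects of these differences cannot be told apart. P-values measure the spread between the 2 libraries of a strain, which the paper calls independent biological replicates.

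The accompanying libraries held 961703 to 2777576 reads in coding sequences, and the depth of the independent libraries is unknown. The targeted gene *adat2* had 8 and 25 reads in the accompanying pair labelled WT and 16 and 90 reads in the pair labelled Si*adat2*, a log2 fold change of 0.91 (standard error 0.46, adjusted p = 0.116 from edgeR), so the lower level that the label implies was not seen. Reads of the hairpin cannot be told apart from those of the gene, so these counts cannot show whether the gene's own message fell. The paper reports the decrease by qRT-PCR in cultures grown in the same way, not in these libraries. In the independent tables *adat2* was listed at 0 in all 4 libraries, and a listed 0 can be a failed estimate. *mat A-1* was also listed at 0 there and had 0, 0, 0 and 2 reads in the accompanying libraries, too few to check the strains. The samples are labelled mycelia, and the values of the conidial genes *eas*, *con-6* and *con-10* are given beside the cluster further on.

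The 6 genes lie in a row on chromosome VII of assembly NC12 between 2040689 and 2056175, a span of 15487 bases. The order is *qa-1F* (2040689 to 2043712), *qa-1S* (2044402 to 2047224), *qa-Y* (2048234 to 2050885), *qa-3* (2050464 to 2052045), *qa-4* (2053590 to 2054705) and *qa-2* (2054859 to 2056175). The regulators therefore sit at one end of these 6 genes and the enzyme gene whose promoter drives the hairpin at the other. The annotated spans of *qa-Y* and *qa-3* overlap by 422 bases, and how reads of the shared stretch were treated is not known. The accompanying counts are for coding sequences only, which the overlap need not reach. The codon bias index, deposited beside the reads as a score of how far a gene keeps to preferred codons, was 0.306 in *qa-Y*, 0.268 in *qa-3* and 0.243 in *qa-4*. It was 0.166 in *qa-1S*, 0.095 in *qa-2* and 0.068 in *qa-1F*, against a median of 0.211 over 9015 genes. The permease and both other enzyme genes were thus above the median, and *qa-2* and both regulators below it.

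The question for the cluster is whether the genes that respond to the inducer were at the same level in the induced WT and the induced Si*adat2*. They were not, and the 2 kinds of mRNA-seq gave opposite answers. In the accompanying mRNA-seq all 6 genes were higher in the libraries labelled Si*adat2* and passed the test, where 23.9% of the 7362 genes tested were called higher. In the independent mRNA-seq all 6 were lower in Si*adat2* and passed the test, where 28.3% of the 7549 genes tested were called lower. Of the 6878 genes tested in both kinds, 3.78% (260) were called higher in the first and lower in the second, as the 6 genes were. Both Si*adat2* values in FPKM were above both WT values for all 6 in the accompanying libraries, as for 52.4% of the genes tested, and below both for all 6 in the independent libraries, as for 45.6%. Calls are at an adjusted p under 0.05, with edgeR's quasi-likelihood test for the accompanying counts and limma on log2(FPKM + 0.1) for the independent values. A log2 fold change is Si*adat2* over WT throughout. The difference between the kinds itself was not tested, because the tables were normalized separately.

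**Figure D1:**
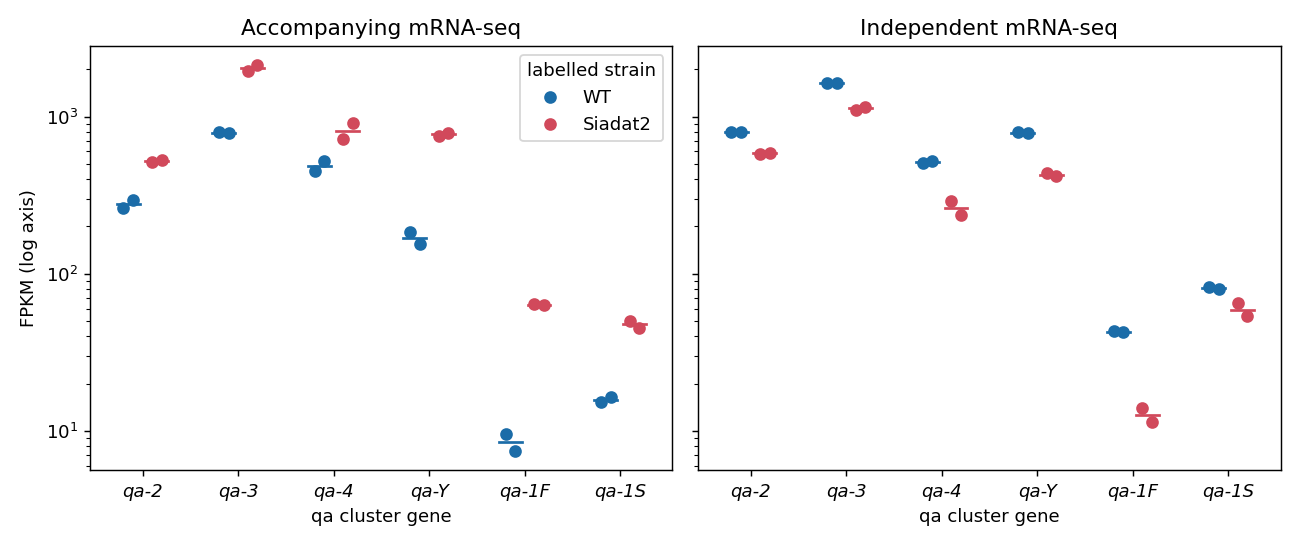
FPKM (log axis) of the 6 *qa* genes in each accompanying library (left) and each independent library (right). Points are libraries, short lines are means of 2 libraries, blue is WT and red is Si*adat2*. For each gene both red points lie above both blue points on the left and below them on the right.

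The enzyme genes carried most of the cluster's message. *qa-3* encodes quinate dehydrogenase, which oxidizes quinate and also shikimate, and was the most abundant of the 6 per length in all 8 libraries. It had 990 and 2361 reads in the accompanying pair labelled WT and 3846 and 7429 in the pair labelled Si*adat2*, which is 796 and 783 against 1954 and 2119 FPKM (reads per kilobase of the length the authors used for the gene and 1e6 reads). The groups were well separated, with means of 789 ± 9.76 and 2037 ± 117 FPKM (SD, n = 2). After edgeR's scaling for library composition (TMM), which FPKM does not have and which makes these changes smaller than the ratios of FPKM, the log2 value of Si*adat2* over WT was 1.06 (standard error 0.10, adjusted p = 3.38e-07, edgeR). In the independent libraries *qa-3* had 1632 and 1622 FPKM in WT and 1100 and 1150 FPKM in Si*adat2*. All 4 values were high, at ranks 23 and 24 of 9660 genes in WT and 49 and 52 in Si*adat2*, and the Si*adat2* values were the lower ones. The corresponding change was -0.53 (log2, standard error 0.08, adjusted p = 0.0139, limma).

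*qa-2* encodes the catabolic 3-dehydroquinase, the enzyme of the next step. Its reads were 194 and 523 in the accompanying pair labelled WT and 597 and 1094 in the pair labelled Si*adat2*, or 264 and 293 against 513 and 527 FPKM. Both Si*adat2* values were above both WT values, by a ratio of the mean FPKM of 1.87. With TMM scaling the log2 value was 0.59 (edgeR, standard error 0.12, adjusted p = 6.99e-04). The independent values of *qa-2* were 793 and 796 FPKM in WT and 581 and 587 FPKM in Si*adat2*. The replicates of each strain lay within a few FPKM of each other, at 794 ± 1.91 and 584 ± 4.43 FPKM (SD, n = 2), and the log2 fold change of -0.44 (standard error 0.07, adjusted p = 0.0155, limma) was the smallest in size of the 6. The message of *qa-2*, whose promoter also drives the hairpin, was thus present in all 8 libraries, between 264 and 527 FPKM in one kind and between 581 and 796 FPKM in the other.

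*qa-4* encodes 3-dehydroshikimate dehydratase, which makes protocatechuate. It had 589 and 1640 reads in the accompanying pair labelled WT and 1483 and 3335 in the pair labelled Si*adat2*, or 452 and 518 against 718 and 907 FPKM. The ranges did not overlap, but the replicates of Si*adat2* were further apart than those of the other enzyme genes. Its log2 fold change was the smallest of the accompanying changes, at 0.43 (standard error 0.12, adjusted p = 0.00691, edgeR), and the call was lost without WT replicate 1 (adjusted p = 0.0639) and without Si*adat2* replicate 2 (adjusted p = 0.0749). *qa-4* had, in the independent libraries, 505 and 524 FPKM in WT and 291 and 235 FPKM in Si*adat2*. Here it was the enzyme gene with the largest change, at -0.97 (standard error 0.14, adjusted p = 0.0103, limma). The log2 fold changes of the 3 enzyme genes thus ran from 0.43 to 1.06 in one kind and from -0.97 to -0.44 in the other, and their differences from each other were not tested.

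The permease gene *qa-Y* had a larger log2 fold change than any of the enzyme genes in the accompanying libraries. Its reads were 341 and 690 in the accompanying pair labelled WT and 2212 and 4115 in the pair labelled Si*adat2*, or 184 and 154 against 756 and 790 FPKM. The Si*adat2* mean FPKM was 4.57 times the WT mean, and the TMM-scaled log2 value was 1.90 (standard error 0.12, adjusted p = 3.22e-09, edgeR). The independent values of *qa-Y* were 792 and 782 FPKM in WT and 436 and 417 FPKM in Si*adat2*. The WT mean was 1.85 times the Si*adat2* mean, or a log2 fold change of -0.88 (standard error 0.08, adjusted p = 0.00352, limma).

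Both regulator genes were far less abundant than the genes they control, and they moved in the same directions. *qa-1F*, the activator gene, had 26 and 49 reads in the accompanying pair labelled WT and 273 and 483 in the pair labelled Si*adat2*, or 9.63 and 7.47 against 63.8 and 63.4 FPKM. It was the lowest of the 6 in WT, and its Si*adat2* mean FPKM was 7.44 times its WT mean, with a TMM-scaled log2 fold change of 2.64 (standard error 0.19, adjusted p = 2.65e-08, edgeR). Its independent values were 43.1 and 42.5 FPKM in WT and 14.0 and 11.4 FPKM in Si*adat2*. The WT mean was 3.37 times the Si*adat2* mean, with a log2 fold change of -1.75 (standard error 0.13, adjusted p = 0.00274, limma). *qa-1F* thus had the largest change of the 6 in both kinds, at the 97.8 percentile of the log2 fold changes of all genes tested in the accompanying mRNA-seq and at the 6.03 percentile in the independent mRNA-seq.

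*qa-1S*, the repressor gene, had 46 and 120 reads in the accompanying pair labelled WT and 238 and 387 in the pair labelled Si*adat2*, or 15.3 and 16.4 against 49.9 and 45.6 FPKM. Both Si*adat2* values were near 3 times the WT values (ratio of mean FPKM 3.01), with a TMM-scaled log2 fold change of 1.27 (standard error 0.17, adjusted p = 1.99e-05, edgeR). Its independent values were 82.1 and 79.8 FPKM in WT and 64.8 and 53.7 FPKM in Si*adat2*. The groups did not overlap, but the change of -0.46 in log2 (standard error 0.12, adjusted p = 0.0469, limma) was the closest of the 6 to the threshold, and it missed the threshold in 4 of 10 alternatives. These were no filter on low values (adjusted p = 0.0518), the replicate block (0.0718), and leaving out WT replicate 1 (0.235) or WT replicate 2 (0.210).

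**Figure D2:**
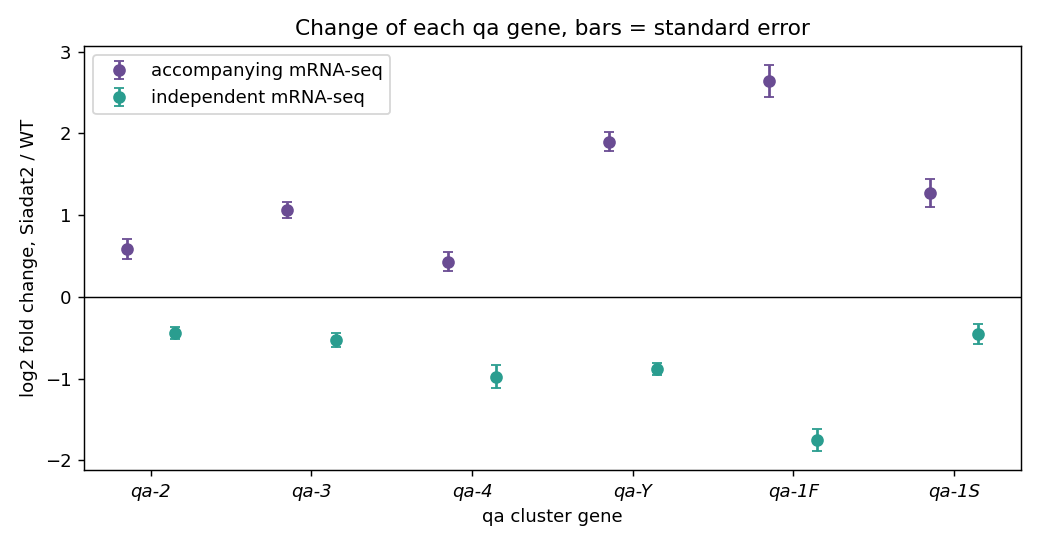
Log2 fold change, Si*adat2* over WT, of each *qa* gene in the accompanying (purple, edgeR) and the independent (green, limma) mRNA-seq, with bars of 1 standard error. All 6 purple points lie above 0, from 0.43 (*qa-4*) to 2.64 (*qa-1F*), and all 6 green points below 0, from -0.44 (*qa-2*) to -1.75 (*qa-1F*).

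The median log2 fold change of the 6 genes was 1.16 in the accompanying mRNA-seq, beside 0.03 over all genes tested, and -0.71 in the independent mRNA-seq, beside -0.13 over all genes tested. With library totals in place of TMM, the median of all genes in the accompanying mRNA-seq moved by 0.29 on the log2 scale, and the calls over all genes shifted from 1760 higher and 1909 lower to 2685 higher and 1401 lower. The 6 *qa* genes were called higher under both scalings. Library totals raise the changes, so this alternative could not have turned their direction and is no check of it. The independent calls rested on both WT libraries. Leaving out 1 library could not have turned the direction of the 6 genes, since the strains did not overlap. Without WT replicate 1 none of the 6 passed the limma test (adjusted p from 0.0505 for *qa-1F* to 0.235), and without WT replicate 2 none passed (adjusted p from 0.0527 for *qa-1F* to 0.225), while all 6 log2 fold changes stayed below 0 and close to their values, and calls over all genes fell from 3710 to 1061 and 1001.

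The balance between repressor and activator message differed between strains in opposite directions. The ratio of *qa-1S* to *qa-1F* in FPKM was 1.58 and 2.18 in the accompanying pair labelled WT and 0.782 and 0.719 in the pair labelled Si*adat2*. The repressor message thus exceeded the activator message in WT only. On the log2 scale the means were 0.89 ± 0.33 and -0.42 ± 0.09 (SD, n = 2), a difference of -1.31. In the independent libraries the ratio was 1.90 and 1.88 in WT but 4.59 and 4.69 in Si*adat2*, with log2 means of 0.92 ± 0.01 and 2.21 ± 0.02 (SD, n = 2) and a difference of 1.30. Repressor message exceeded activator message in all 4 of these libraries and by more in Si*adat2*. The strains did not overlap in either kind, but an exact two-sided permutation test of 2 against 2 libraries cannot go below the p of 0.33 found in both.

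The 6 genes together took 0.227% and 0.228% of the reads in the accompanying libraries labelled WT (Wilson 95% intervals 0.218% to 0.237% and 0.222% to 0.234%) and 0.559% and 0.606% in the pair labelled Si*adat2* (0.547% to 0.571% and 0.597% to 0.616%). These intervals cover counting error only. The mean share in the libraries labelled Si*adat2* was 2.56 times that in the libraries labelled WT. In the independent libraries the 6 genes took 0.744% and 0.751% of the summed FPKM in WT and 0.512% and 0.489% in Si*adat2*, so WT had 1.49 times the share of Si*adat2*. The groups did not overlap in either kind (exact two-sided permutation p = 0.33, the smallest possible). Within each kind, the lower strain still made all 6 messages.

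**Figure D3:**
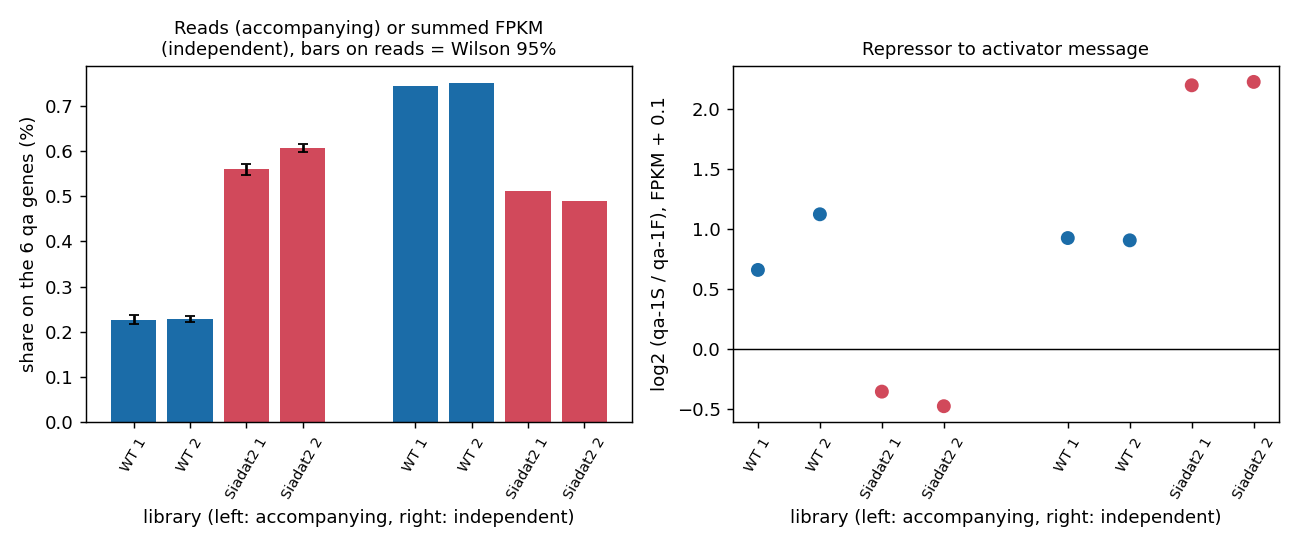
Left, the share (%) of library reads (accompanying, with Wilson 95% intervals) or of summed FPKM (independent) on the 6 *qa* genes in each library, WT in blue and Si*adat2* in red. Right, the log2 ratio of *qa-1S* to *qa-1F* FPKM in the same libraries, which is below 0 only in the 2 accompanying Si*adat2* libraries and highest, at 2.20 and 2.23, in the 2 independent Si*adat2* libraries.

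The order of the 6 levels per length also differed. In both accompanying libraries labelled WT it was *qa-3*, *qa-4*, *qa-2*, *qa-Y*, *qa-1S* and *qa-1F*. In those labelled Si*adat2*, *qa-Y* was near *qa-4*, above it in replicate 1 and below it in replicate 2, so these neighbours did not differ beyond their spread, and *qa-1F* was above *qa-1S*. In all 4 independent libraries the order was *qa-3*, *qa-2*, *qa-Y*, *qa-4*, *qa-1S* and *qa-1F*, and in WT *qa-2* (793 and 796 FPKM) and *qa-Y* (792 and 782 FPKM) were nearly level. Their deposited confidence bounds lie below these values and apart. In WT replicate 1 they were 698 to 711 for *qa-2* and 629 to 638 for *qa-Y*, and in replicate 2 they were 696 to 713 and 618 to 629. *qa-Y* made up 10.7% and 8.68% of the summed FPKM of the 6 genes in the accompanying pair labelled WT and 18.6% and 17.7% in the pair labelled Si*adat2*. *qa-3* made up 42.2% to 48.2% in all 8 libraries and varied least in proportion among the 6 genes' shares.

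Outside the 6 genes, the gene next to *qa-2* was also higher in the accompanying libraries labelled Si*adat2*. *qa-X* (NCU06022), the adjacent gene beyond *qa-2*, is also a quinate gene by name and may itself belong to the cluster. It was not among the 6 taken here. It is counted with the flanking genes, a term that here means only genes outside the 6. It had 158 and 157 FPKM in the accompanying pair labelled WT and 381 and 429 FPKM in the pair labelled Si*adat2*, a log2 fold change of 1.06 (standard error 0.12, adjusted p = 1.98e-06, edgeR). Its independent values were 150 and 144 FPKM in WT and 111 and 135 FPKM in Si*adat2*, and -0.26 (standard error 0.12) did not pass the limma test (adjusted p = 0.168). Of the 7 flanking genes, *qa-X* included, 6 were tested in the accompanying mRNA-seq and 3 were called higher, the others being *gh18-7* (0.54, adjusted p = 0.0463) and NCU06030 (0.90, adjusted p = 3.57e-04), beside 23.9% of all genes tested. In the independent mRNA-seq all 7 were tested, *gh18-7* was called lower (-0.84, adjusted p = 0.0499, limma) and NCU06029 higher (0.38, adjusted p = 0.0348, limma). Of all genes tested there, 28.3% were called lower and 20.9% higher, so the independent counts do not stand above the background. The median log2 fold change of the flanking genes was 0.45 in the accompanying and 0.12 in the independent mRNA-seq.

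**Figure D4:**
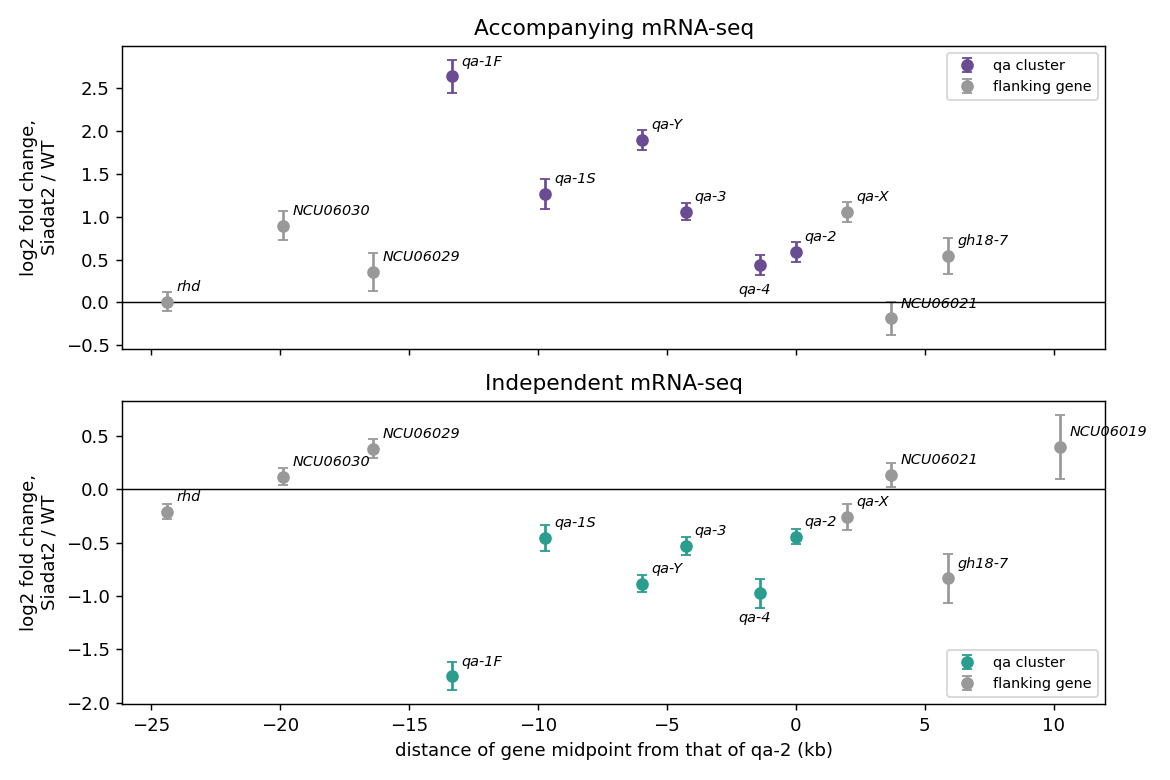
Log2 fold change, Si*adat2* over WT, with 1 standard error, against the distance in kb of each gene's midpoint from that of *qa-2*, for the 6 *qa* genes (coloured) and the genes flanking them, *qa-X* included (grey), in the accompanying (top) and independent (bottom) mRNA-seq. The 6 coloured genes stand above 0 at the top and below 0 at the bottom, with *qa-1F* the farthest from 0 in both panels.

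Genes of pathways that share metabolites with the cluster had other patterns. The shikimate pathway, which builds aromatic amino acids, passes through 3-dehydroquinate and 3-dehydroshikimate, the substrates of QA-2 and QA-4. The list held the 7 genes found by an *aro* symbol or by a product name in a table of the study that describes 1875 proteins, so genes with neither could not enter it. They were *aro-1* of the pentafunctional AROM protein, the DAHP synthase genes *aro-6*, *aro-7* and *aro-8* of the first step, *aro-3*, and 2 genes with a chorismate mutase annotation, NCU00409 and NCU07725. In the independent mRNA-seq all 7 were called higher in Si*adat2*, where 20.9% of all genes tested were called higher, with a median log2 fold change of 3.35 and a range from 1.73 (NCU07725) to 4.26 (*aro-3*). *aro-1*, which also encodes the biosynthetic 3-dehydroquinase, rose from 11.6 and 11.7 to 108 and 83.3 FPKM (3.01, adjusted p = 0.00139, limma), in the same libraries in which *qa-2* of the catabolic enzyme fell. In the accompanying mRNA-seq *aro-8* was higher (0.51, adjusted p = 0.0166, edgeR), *aro-6* (-0.97, adjusted p = 3.26e-05) and NCU00409 (-1.11, adjusted p = 0.00298) were lower, where 25.9% of all genes tested were called lower, and the other 4 had log2 fold changes from 0.06 to 0.13 that did not pass.

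Downstream of the cluster, a search of product names for protocatechuate breakdown found 2 genes among the same 1875 described proteins, so the list is not complete. A product name alone does not show that a gene acts in this pathway. *cmc* (NCU04071), of carboxymuconate cyclase, had 581 and 558 FPKM in the accompanying pair labelled WT and 132 and 124 FPKM in the pair labelled Si*adat2*, and fell by 2.47 in log2 (standard error 0.12, adjusted p = 2.11e-10, edgeR). In the independent libraries it had 210 and 207 FPKM in WT and 194 and 212 FPKM in Si*adat2*, with overlapping groups. NCU04594, annotated as a 4-carboxymuconolactone decarboxylase, had a log2 fold change of -0.60 (adjusted p = 5.61e-04, edgeR) in the accompanying and of 0.91 (adjusted p = 0.0170, limma) in the independent mRNA-seq. Both were lower where the 6 *qa* genes were higher, and NCU04594 was higher where they were lower.

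**Figure D5:**
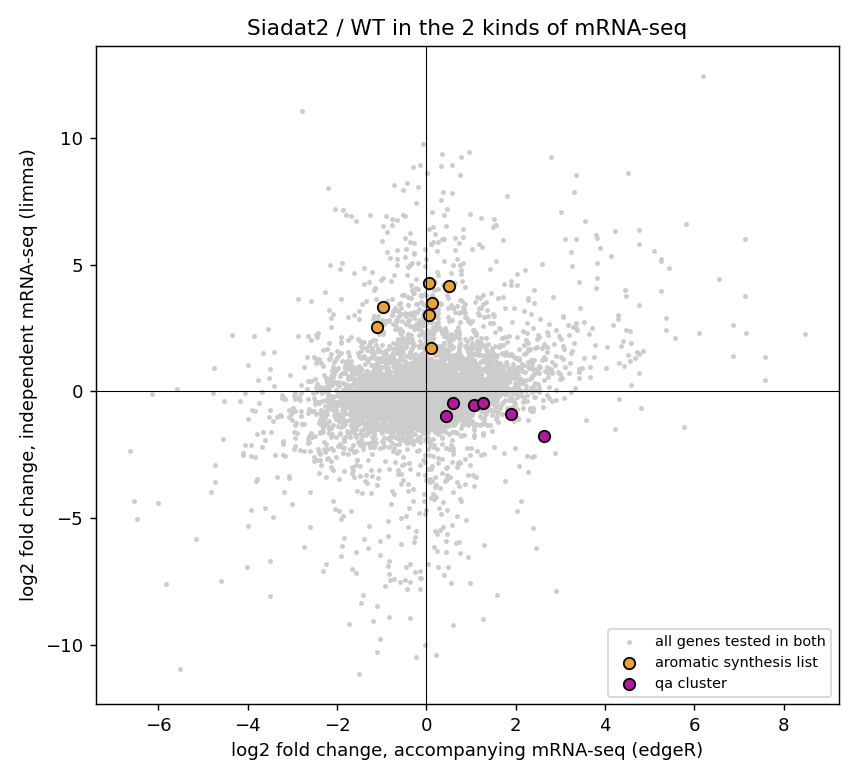
Log2 fold change, Si*adat2* over WT, in the accompanying mRNA-seq (x axis, edgeR) against that in the independent mRNA-seq (y axis, limma) for the 6878 genes tested in both. The 6 *qa* genes (magenta) all lie right of 0 and below 0, and the 7 genes of aromatic synthesis (orange) all lie above 0 on the y axis and between -1.11 and 0.51 on the x axis.

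Genes that bear on induction or on the state of the cultures moved as well, and their part in the changes of the cluster was not tested. *cre-1*, of the repressor of genes for poor carbon sources when glucose is present, was higher in Si*adat2* in both kinds (0.50, adjusted p = 0.0269, edgeR, and 2.18, adjusted p = 9.21e-04, limma). *his-3* is the locus of the hairpin, and the paper also names it as a known target of CPC-1, an activator of amino acid synthesis genes. It did not pass in the accompanying mRNA-seq (-0.07) and was higher in the independent mRNA-seq (2.74, adjusted p = 0.00133, limma). All 3 conidial genes were called higher in the accompanying libraries labelled Si*adat2*. *eas*, of the hydrophobin that coats conidia, had 1172 and 2988 reads in WT and 107466 and 146950 in Si*adat2*. *con-6* had 844 and 2104 reads against 21310 and 37434, and *con-10* 5 and 25 against 102 and 218. *eas* and *con-6* together took 0.210% and 0.216% of the reads in WT and 8.32% and 6.64% in Si*adat2*. Without their reads all 6 *qa* genes were still called higher, an alternative chosen after seeing the data. Leaving out 2 genes hardly moves TMM scaling (*qa-3* 1.061 with them and 1.056 without), so it does not address the state of the cultures. In the independent libraries *con-6* (1961 and 1939 against 3234 and 4496 FPKM) and *con-10* (115 and 99.9 against 593 and 769 FPKM) were also higher in Si*adat2*, and *eas* was not analysed there.

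The genes most like the cluster were sought over the 8 libraries, by Pearson's r of log2(FPKM + 0.1), centred within each kind, with the mean of *qa-2*, *qa-4*, *qa-3* and *qa-Y*, among 4817 genes with a mean of at least 10 FPKM in both kinds. The points are pairs of libraries of one strain and kind, 11.2% of these genes had an r above 0.9, and the values are a description only. The 5 genes outside the cluster with the highest r were NCU07894 (0.998), NCU01451 (0.997), NCU04815 (0.993), NCU06834 (0.993) and NCU06271 (0.992), on chromosomes IV, V, VI, II and III. NCU07894 had 56.6 and 55.7 against 137 and 138 FPKM in the accompanying and 141 and 138 against 91.3 and 85.3 FPKM in the independent libraries. Among regulators, *qa-1F* had an r of 0.993 with the mean of the 4 structural genes and *qa-1S* 0.965. Of the genes in that mean, *qa-2* had 0.993, *qa-3* 0.990 and *qa-Y* 0.988, but *qa-4* only 0.892. The r of *qa-X* was 0.937.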

How the data were processed

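The 8 mRNA libraries were grouped by labelled strain and kind. The first accompanying libraries carry no replicate number and were taken as replicate 1. The authors deposited, for each accompanying library, a count of uniquely mapped reads per coding sequence, the FPKM derived from that count, and a score for codon bias (the codon bias index). The independent tables, also as deposited by the authors, give FPKM and coverage per transcript in the form of Cufflinks output, and the coverage was used only to check that its ratio to FPKM is constant within a library. Cufflinks and TopHat2 are named in the submitters' processing notes, and which reads they were used for is not given in the sources used here. For none of the 24 independent values of the 6 genes did the deposited FPKM lie between its deposited confidence bounds, and the midpoint of the bounds was tried as an alternative. The transcripts of each gene were summed, 70 genes that lacked a transcript in one of the tables were dropped, and genes not listed in an accompanying file were set to 0 reads. Symbols and positions came from the NCBI gene table of assembly NC12, which matched 9729 of 9730 identifiers. Product names came from a protein table of the study.

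Counts were tested with edgeR 4.0.16 (quasi-likelihood test, TMM scaling, filterByExpr keeping genes from a minimum count of 10). FPKM was tested as log2(FPKM + 0.1) with limma 3.58.1, with a variance trend and a minimum mean FPKM of 1, in R 4.3.3. Each model was fitted on the whole table with Benjamini-Hochberg adjustment over all genes tested. Changes on the log2(FPKM + 0.1) scale are understated for low genes. The standard error of an edgeR change is its size over the square root of the F statistic. DESeq2 1.42.0, other scalings, filters and pseudocounts, a replicate block and leaving out each library were alternatives. Shares and the *qa-1S* to *qa-1F* ratio were compared by exact permutation tests in Python 3.11.15 with scipy 1.17.1. The edgeR, DESeq2 and limma fits were first tested at their default settings on simulated data, and the other settings were not. The members of the cluster, the gene lists and the rule for named genes (the 6 genes, the listed genes that pass in either kind, and the 5 most similar genes) were chosen with earlier results of these data known. Conidial, *cre-1*, *his-3* and mating type genes served as checks. The ribosome profiling files hold values per codon, not per gene, and were not used here.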

Additional observations from a re-analysis of the deposited data

Results flagged for a closer look

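For the 6 *qa* genes and several related genes, both Si*adat2* values lay on one side of both WT values in the accompanying libraries and on the other side in the independent ones, and the difference between the kinds was not tested. The difference of the log2(FPKM + 0.1) changes, accompanying minus independent, was 1.35 for *qa-2*, 1.71 for *qa-4*, 1.90 for *qa-3*, 3.08 for *qa-Y*, 2.04 for *qa-1S* and 4.65 for *qa-1F*. Among the flanking genes it was 1.75 for *gh18-7*, 1.62 for *qa-X*, which did not pass the test in the independent mRNA-seq, and 0.52 for *rhd*, which passed in neither kind. It had the opposite sign for *aro-6* (-4.01), NCU00409 (-3.38) and NCU04594 (-1.20). The log2 ratio of *qa-1S* to *qa-1F* gave -2.61, and the share of the library on the 6 genes gave 0.60 percentage points. The accompanying changes in this paragraph are on FPKM without composition scaling, under which the median gene of the accompanying libraries is higher in Si*adat2*.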

How the results depend on the processing

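No alternative turned the direction of any of the 6 *qa* genes, but several could not have done so. Both Si*adat2* values in FPKM lay on one side of both WT values in each kind. Leaving out 1 library or changing the pseudocount therefore cannot turn the difference in FPKM. The replicate block left the independent changes as they were. These alternatives are no check of the direction. In the accompanying mRNA-seq all 6 were called under every alternative except 2, without WT replicate 1 and without Si*adat2* replicate 2, where *qa-4* missed the threshold, so that leaving out 1 library gave 5 to 6 calls among the 6 genes and 2930 to 3843 among all genes. In the independent mRNA-seq, leaving out 1 library gave 0 to 6 calls among the 6 genes and 1001 to 4504 among all genes. The 0 calls came from limma without WT replicate 1 or without WT replicate 2, where 3 of the 6 genes had an unadjusted p under 0.05 each time, and no other tool was run on these values. In a strain left with 1 library, that library is assumed to vary like those of the other strain. With the replicate block, 6 of 6 genes and 4153 genes in all were called in the accompanying mRNA-seq and 3 of 6 and 2965 in all in the independent mRNA-seq, where *qa-2* (adjusted p = 0.0776), *qa-3* (0.0665) and *qa-1S* (0.0718) missed the threshold. The deviations of libraries with the same number correlated across genes with r = 0.278 in the accompanying mRNA-seq, whose pairs come from the paper, and with r = 0.00928 in the independent mRNA-seq, whose libraries share only a number. With a pseudocount of 1 the difference in the log2 ratio of *qa-1S* to *qa-1F* between strains was 1.23 instead of 1.30 in the independent libraries. The counts of WT replicate 1 of the accompanying mRNA-seq, with 26 reads on *qa-1F*, limit the precision of its ratio.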
